A study of Mus musculus with 62 samples.

Results

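Transcript levels of 35 mouse genes of the presynaptic terminal were followed in RNA-seq of the cerebellum, during the growth of a melanoma that causes cachexia. Cachexia is a loss of body mass seen with some tumours. The genes were chosen by name, as known components of the vesicle cycle, with earlier results of these data known. They were taken out of 47643 symbols in the table of TPM values (transcripts per 1e+06 transcripts). They fall into 5 role groups: 8 SNAREs and fusion factors (Snap25, Stx1a, Vamp1, Vamp2, Cplx1, Cplx2, Napb, Nsf), 4 synaptotagmins (Syt1, Syt2, Syt7, Syt11), 12 vesicle proteins (Syn1, Syn2, Syn3, Syp, Synpr, Syngr1, Sv2a, Sv2b, Sv2c, Rab3a, Rab3c, Rph3a), 9 active zone genes (Unc13a, Unc13c, Rims1, Rims2, Rimbp2, Bsn, Pclo, Erc2, Ppfia3) and 2 genes of vesicle endocytosis (Dnm1, Amph). All 35 were in the table and all passed the filter on low values, a mean of at least 1 TPM over the 62 libraries.

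The mice were female and labelled as 2 months old, and formed 3 treatment arms: injection of cachectic melanoma cells (CAC), of melanoma cells labelled non-cachectic (NCAC), or a mock injection. Cerebellum was taken 2, 4, 6 or 8 weeks (wk) later, with 5 libraries in each of the 12 groups except CAC at 8 wk, which had 7. The strain is C57BL6/J in the sample fields but NCI Ath/nude, an immunodeficient strain, in the design text, so it is not settled, and neither the melanoma lines nor a measure of wasting is named in the labels. The libraries are labelled biological replicates and no label ties one to a named animal, so p-values measure the spread between these libraries.

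Neurotransmitter is stored in synaptic vesicles, which dock and are primed at the active zone, a protein scaffold facing the synaptic cleft. Fusion is driven by a SNARE complex of a vesicle protein (a synaptobrevin, encoded by Vamp1 or Vamp2) and plasma membrane proteins (a syntaxin and SNAP-25). Synaptotagmins sense calcium, complexins clamp and assist fusion, and NSF with its SNAP adaptors takes the spent complexes apart before the membrane is retrieved by endocytosis. In the cerebellum most terminals belong to granule cells, whose parallel fibres contact Purkinje cells.

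Promoter windows are shown for Synpr, Unc13c and Rab3c, the members whose libraries did not overlap between CAC and mock at 8 wk (8.57% of the members, against 4.49% of all genes tested). Each is the 250 bases before a RefSeq start (GRCm38.p6), read 5′ to 3′ on the gene's strand, and capitals mark a match to the GC box GGGCGG on either strand (CCGCCC is its reverse complement). Synpr (chromosome 14, plus strand) has a window at each of 2 RefSeq starts, chr14:13284530-13284779 with 64.0% G or C and chr14:13453708-13453957 with 44.4%. The first overlaps an exon of Gm5087, a non-coding gene on the opposite strand, and the second lies within the gene. The Unc13c window is chr9:73969038-73969287 and the Rab3c window chr13:110280207-110280456, both on the minus strand, with 58.8% and 47.6% G or C. The Rab3c window also lies within its gene by GENCODE coordinates (chr13:110054187-110280996), whose start is upstream of the RefSeq start.
Synpr, first start: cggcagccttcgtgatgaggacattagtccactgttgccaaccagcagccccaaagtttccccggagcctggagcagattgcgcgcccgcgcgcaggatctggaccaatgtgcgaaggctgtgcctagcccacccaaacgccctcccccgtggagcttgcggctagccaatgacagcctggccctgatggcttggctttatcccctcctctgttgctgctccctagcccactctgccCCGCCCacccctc
Synpr, second start: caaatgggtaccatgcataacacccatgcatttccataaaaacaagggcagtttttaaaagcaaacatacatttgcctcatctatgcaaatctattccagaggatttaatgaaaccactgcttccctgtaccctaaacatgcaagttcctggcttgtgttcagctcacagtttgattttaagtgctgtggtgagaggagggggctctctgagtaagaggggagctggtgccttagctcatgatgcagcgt
Unc13c: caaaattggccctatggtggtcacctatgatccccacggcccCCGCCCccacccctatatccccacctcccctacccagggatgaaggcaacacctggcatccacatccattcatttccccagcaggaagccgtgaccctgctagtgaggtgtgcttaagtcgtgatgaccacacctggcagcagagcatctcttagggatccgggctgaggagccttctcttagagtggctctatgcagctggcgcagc
Rab3c: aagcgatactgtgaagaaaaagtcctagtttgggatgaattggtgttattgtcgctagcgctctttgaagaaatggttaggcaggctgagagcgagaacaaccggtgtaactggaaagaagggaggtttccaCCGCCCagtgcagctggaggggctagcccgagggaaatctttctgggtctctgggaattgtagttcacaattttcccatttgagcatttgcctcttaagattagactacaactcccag
The GC box stood in the first Synpr window, the Unc13c window and the Rab3c window, and these letters were not in the second Synpr window. RefSeq windows were at hand for 30 of the members. Of their 40 windows 52.5% held the GC box, against 32.7% of all 32851 windows, and their median G or C content was 60.0% against 52.4%. The cAMP response element TGACGTCA was in 2.5% of the member windows and 1.55% of all windows, the E-box CACGTG in 5.0% and 6.02%, the glucocorticoid half-site AGAACA in 15.0% and 16.1%, and the TATA box TATAAA in 5.0% and 12.4%, each on either strand. The palindromic glucocorticoid response element was in 0% of the member windows and 0.00913% of all windows. A match is a description of letters and not a binding site.

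The table keeps no sequencing depth. Mitochondrially encoded genes at 8 wk took 19.0 ± 1.31% of TPM in the 7 CAC libraries (SD) and 20.9 ± 1.18% in the 5 mock libraries (SD). Replicate 3 of CAC at 8 wk stood apart in blood content: its summed TPM of 5 red blood cell genes was 20417, while the remaining 6 CAC libraries ran from 128.1 to 2334 and mock from 851.6 to 1958. Replicate 1 of mock at 8 wk had a summed TPM of 17.7 over 8 brainstem genes, against 0.877 to 2.69 in the other mock libraries. Counts at 8 wk are therefore also given without CAC replicate 3, and counts of members that differed from mock also without mock replicate 1. Genes of the cerebellum's own cells were present in every group, with granule cell markers summing to at least 5437 TPM and Purkinje cell markers to at least 5467 TPM at 8 wk.

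The presynaptic genes ranged from abundant transcripts of the tissue to scarce ones. Their sum was lowest in CAC at 8 wk, at 1.05 ± 0.0172% of TPM (SD, n = 7), and highest in mock at 6 wk, at 1.10 ± 0.0147% (SD, n = 5). Snap25, the plasma membrane SNARE, had the highest mean at 1499 TPM and stood at rank 31 of all genes. Complexins Cplx2 and Cplx1 followed at 1016 and 981.3 TPM, and the endocytic GTPase Dnm1 at 810.3 TPM. The lowest means were those of Stx1a at 2.86 TPM, Syn3 at 2.97 and Rimbp2, which links RIM to calcium channels, at 4.91. Syn3 overlaps Timp3 on the opposite strand (mean 64.1 TPM). Whether counting used the strand is not stated, so the Syn3 level is uncertain. The same limit applies to other members that overlap an opposite-strand gene. Among them are Syn2 (Timp4, 79.0 TPM), Syngr1 (Rpl3, 253 TPM), Unc13a (Colgalt1, 55.3 TPM) and Dnm1 (Ciz1, 22.8 TPM), and the extent of overlap differs. The coefficient of variation over all 62 libraries ran from 2.84% for Rab3a to 23.9% for Stx1a.

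**Figure D1:**
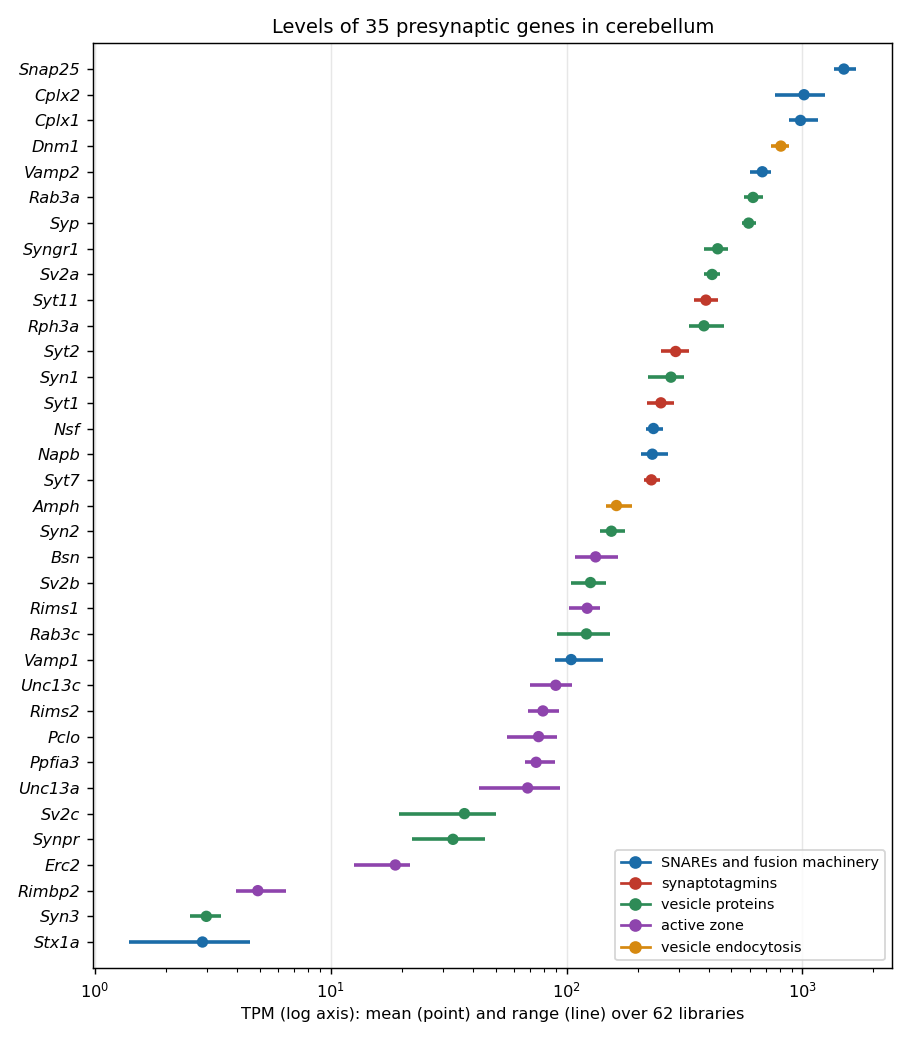
Mean TPM (point) and range (line) of each presynaptic gene over all 62 libraries on a log axis, coloured by role group. Means run from 2.86 TPM for Stx1a to 1499 TPM for Snap25, and the active zone genes lie below most SNAREs.

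Whether the tumour that causes cachexia alters presynaptic transcripts was first asked at 8 wk, in CAC against mock. Synpr, encoding the vesicle membrane protein synaptoporin, rose in CAC, as did Napb, a SNAP adaptor, and the active zone genes Bsn (bassoon) and Rims2. Unc13c, the Munc13 priming factor of granule cells, fell, as did the vesicle GTPase gene Rab3c, Syn1 (synapsin I) and Snap25. In limma, 8 of 35 members passed an adjusted p of 0.05, or 22.9%, against 20.8% of all 14399 genes tested. There were 4 higher, against 13.4% higher of all genes, and 4 lower, against 7.34% lower. The share called was thus near that of all genes. The median log2 fold change, on the log2(TPM + 1) scale, was -0.04 over the members and 0.02 over all genes, with 11 members above 0 and 24 below. By role, 2 of 8 SNAREs and fusion factors, 0 of 4 synaptotagmins, 3 of 12 vesicle proteins, 3 of 9 active zone genes and 0 of 2 endocytosis genes passed in limma. At an unadjusted p under 0.05 there were 2 synaptotagmins and 0 endocytosis genes. At that level stood 13 of 35 members and 4882 of all 14399 genes. Without CAC replicate 3 the count was 11, with Syt7 added among the higher and Syt11 and Pclo among the lower. Without mock replicate 1 the count was 8. The direction split of all calls depends on the scaling: 64.6% of calls were higher as reported, 50.4% after median-of-ratios scaling, 47.0% after quantile normalization and 41.8% without mitochondrially encoded genes. Under those settings 4 members were higher each time, and 7, 7 and 9 were lower.

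**Figure D2:**
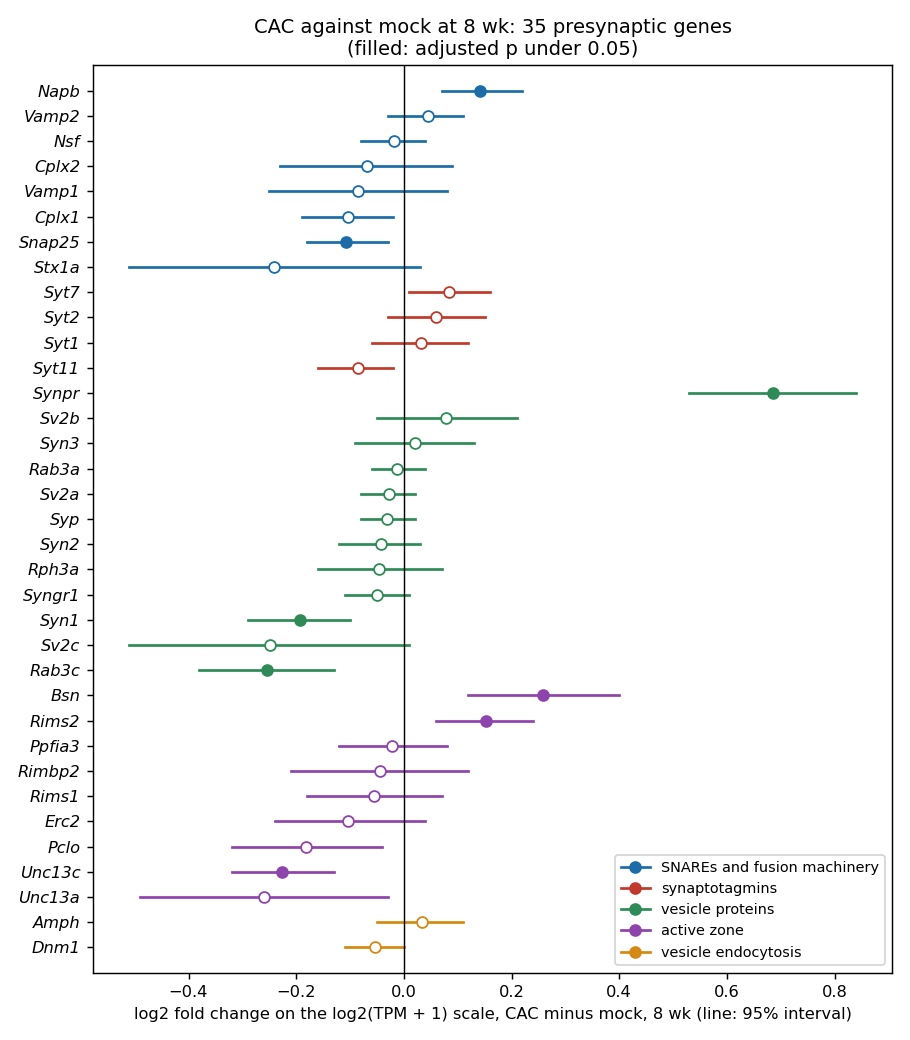
Log2 fold change of each member for CAC minus mock at 8 wk on the log2(TPM + 1) scale, with its 95% interval, ordered within role groups. Filled points are the 8 members past an adjusted p of 0.05; Synpr lies at 0.69 and all other members lie between -0.26 and 0.26.

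Synpr, on chr14:13284780-13616340, was the member with the largest change. In the 7 CAC libraries at 8 wk its lowest, median and highest values were 36.6, 41.3 and 45 TPM. In mock it stood at 25.2, 27.2, 22.1, 24.1 and 27.7 TPM, and in NCAC at 29.3, 30, 33.6, 29.7 and 30.9 TPM. Every CAC library lay above every mock and NCAC library, and NCAC above mock. Of the 12 groups over all weeks, CAC at 8 wk had the highest Synpr mean and mock at 8 wk the lowest. The log2 fold change of Synpr for CAC against mock was 0.69 ± 0.08 (SE; adjusted p = 1.97e-08, limma), rank 6 of all genes by the size of the moderated t. The call held in all 9 other settings and without each of the 12 libraries in turn, where the fold change lay between 0.64 and 0.74. No gene with a mean of at least 1 TPM overlaps Synpr. Syp, which encodes the related and far more abundant synaptophysin, averaged 575.1 ± 16.8 TPM over the CAC libraries (SD, n = 7) and 587.7 ± 11.3 over mock (SD, n = 5), a log2 fold change of -0.03 (95% interval -0.08 to 0.02). The ratio of Synpr to Syp in TPM was 0.0717 ± 0.00541 in CAC, 0.0524 ± 0.00253 in NCAC and 0.043 ± 0.00453 in mock.

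Other vesicle proteins moved by less. Rab3c had lowest, median and highest values of 91.2, 109.8 and 120.1 TPM in CAC, and 121.8, 131.4, 129.7, 134.2 and 120.3 TPM in mock. The groups did not overlap, though the highest CAC and lowest mock libraries nearly met. Rab3c fell by 0.25 on the log2 scale (SE 0.06; adjusted p = 0.00244, limma). Its paralog Rab3a, the main Rab3 of vesicles at 617.5 TPM over all libraries, had a log2 fold change of -0.01 (95% interval -0.06 to 0.04).
Syn1, whose product tethers vesicles in the reserve pool, had lowest, median and highest values of 220.8, 237.8 and 295.2 TPM in CAC and stood at 292.1, 294.3, 284.7, 278.9 and 283.3 TPM in mock. CAC replicate 3, at 282.2 TPM, lay within the mock range and replicate 5, at 295.2 TPM, just above it; the other 5 CAC libraries lay below it. Syn1 fell by 0.19 (SE 0.05; adjusted p = 0.00208), and was not called in a fit on the compared groups alone (adjusted p = 0.0681). It shares its locus with the opposite-strand genes Araf, at a mean of 83.0 TPM, and Timp1, at 1.65 TPM. Of the remaining 8 vesicle proteins, Syn2, Syn3, Syngr1, Sv2a, Sv2b, Sv2c, Rph3a and Syp, 0 passed, with log2 fold changes from -0.25 for Sv2c to 0.08 for Sv2b.

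Among the SNAREs and fusion factors the calls went in both directions. Napb, which encodes the brain form of the SNAP adaptor that recruits NSF, had lowest, median and highest values of 236.9, 253.4 and 269.6 TPM in CAC and stood at 229.2, 229.8, 219.7, 222.6 and 238.5 TPM in mock. Only the lowest CAC library reached into the mock range. Napb rose by 0.14 on the log2 scale (SE 0.04; adjusted p = 0.00341, limma), in all 9 other settings and without each library in turn. Nsf, the ATPase that Napb's product recruits, averaged 234.1 ± 11.4 TPM over the CAC libraries and 237.2 ± 8.00 over mock, and did not pass. Snap25 had lowest, median and highest values of 1360, 1433 and 1538 TPM in CAC and stood at 1554, 1602, 1575, 1419 and 1523 TPM in mock, so that the groups overlapped. Snap25 fell by 0.11 (SE 0.04; adjusted p = 0.0373). This call is marginal: it was lost in 3 of 9 other settings and without any of 7 of the 12 libraries, where the adjusted p reached 0.102 without mock replicate 3. Stx1a had the lowest fold change of this group at -0.24 ± 0.13 (SE) and did not pass (adjusted p = 0.196), with 1.4 to 3.53 TPM in CAC and 1.94 to 4.25 TPM in mock. The other 4, Vamp1, Vamp2, Cplx1 and Cplx2, had log2 fold changes between -0.10 and 0.04, none past the threshold.

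No synaptotagmin passed at 8 wk. Syt7, a slow calcium sensor of asynchronous release, had lowest, median and highest values of 219.9, 241.9 and 247.3 TPM in CAC and stood at 213.7, 239.3, 220.3, 234.3 and 217 TPM in mock (log2 fold change 0.08; adjusted p = 0.0788, limma). Syt11, which binds no calcium, lay at 369.1 ± 9.04 TPM in CAC and 391.8 ± 13.9 in mock (log2 fold change -0.09; adjusted p = 0.0719). Without CAC replicate 3 both passed, with adjusted p-values of 0.0255 for Syt7 and 0.0467 for Syt11. The fast calcium sensors Syt1 and Syt2, the latter the main one of many hindbrain synapses, had log2 fold changes of 0.03 and 0.06 and 95% intervals of -0.06 to 0.12 and -0.03 to 0.15.

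Of the active zone genes 2 were higher and 1 lower. Unc13c, on chr9:73479422-73968966, had lowest, median and highest values of 69.7, 80.1 and 90.4 TPM in CAC and stood at 92.3, 92.4, 97.3, 93.4 and 96.5 TPM in mock. Every CAC library lay below every mock library. Unc13c fell by 0.23 on the log2 scale (SE 0.05; adjusted p = 0.000618, limma), in all 9 other settings and without each library in turn. The related priming gene Unc13a ranged from 42.4 to 83.3 TPM in CAC around a median of 52.1, and from 61.8 to 75.9 TPM in mock. Its log2 fold change of -0.26 had the larger SE of 0.12 and did not pass (adjusted p = 0.105).
Bsn had lowest, median and highest values of 128.2, 142.5 and 165.2 TPM in CAC and stood at 108.9, 120.4, 116.8, 133.1 and 138.1 TPM in mock. The groups overlapped through CAC replicates 1 and 3, at 138.1 and 128.2 TPM. Bsn rose by 0.26 (SE 0.07; adjusted p = 0.00635), and overlaps 4930447F24Rik on the opposite strand (mean 17.9 TPM). Pclo, encoding piccolo, the large scaffold related to bassoon, had lowest, median and highest values of 56.1, 65.2 and 79.2 TPM in CAC and stood at 62, 85.2, 79.9, 72.3 and 77.3 TPM in mock. Its log2 fold change was -0.18, just outside the threshold (adjusted p = 0.0504), and it passed without CAC replicate 3 (adjusted p = 0.0243) or mock replicate 1 (adjusted p = 0.0102). The Bsn to Pclo ratio in TPM averaged 2.25 ± 0.273 in CAC (range 1.74 to 2.52), 1.65 ± 0.198 in mock (1.41 to 1.84) and 1.62 ± 0.122 in NCAC (1.5 to 1.8).
Rims2, a RIM scaffold that holds vesicles and calcium channels together, had lowest, median and highest values of 79.3, 84.1 and 91.9 TPM in CAC and stood at 72.7, 81.5, 72.2, 71.3 and 83.3 TPM in mock. The groups overlapped through mock replicates 2 and 5. Rims2 rose by 0.15 (SE 0.05; adjusted p = 0.0118) but was not called without mock replicate 3 (adjusted p = 0.0514) or 4 (adjusted p = 0.0522), or in a fit on the compared groups alone (adjusted p = 0.0686). Rims1 had a log2 fold change of -0.06 (95% interval -0.18 to 0.07). Rimbp2, Erc2 and Ppfia3 lay between -0.10 and -0.02, none past the threshold.

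Of the endocytosis genes, Dnm1 had lowest, median and highest values of 737.1, 774.2 and 795.6 TPM in CAC and stood at 756, 822.2, 802.6, 781.7 and 815.8 TPM in mock (log2 fold change -0.05; adjusted p = 0.176, limma). Amph, which brings dynamin to the vesicle neck, averaged 161.5 ± 6.79 TPM over the CAC libraries and 157.9 ± 4.40 over mock, a log2 fold change of 0.03 (95% interval -0.05 to 0.11).

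At 6 wk 0 members passed in CAC against mock in limma, against 1.72% of all genes (1.41% higher and 0.313% lower). At an unadjusted p under 0.05 were 6 of 35 members and 2297 of all 14399 genes. Of all calls 81.9% were higher as reported, 54.3% after median-of-ratios scaling, 48.0% after quantile normalization and 59.5% without mitochondrially encoded genes. The 6 members were Syt11 (log2 fold change -0.12; adjusted p = 0.0684), Unc13c (-0.17; adjusted p = 0.0759), Synpr (0.26; adjusted p = 0.0926), Erc2 (-0.22), Syngr1 (-0.08) and Napb (0.09). At 4 wk 0 members passed in limma, against 0.00694% of all genes. At an unadjusted p under 0.05 were 4 of 35 members and 1149 of all 14399 genes. At 2 wk 0 members passed in limma, against 0% of all genes, and those unadjusted counts were 3 of 35 and 697 of 14399. Synpr had log2 fold changes of 0.05, 0.17, 0.26 and 0.69 at 2, 4, 6 and 8 wk. Its CAC mean went from 31.3 ± 2.14 TPM at 2 wk (SD, n = 5) to 41.2 ± 2.96 at 8 wk (SD, n = 7), while its mock mean was 30.1 ± 1.10 TPM at 2 wk and 25.3 ± 2.27 at 8 wk. Whether the difference of CAC from mock itself changed between 2 and 8 wk was tested across all genes. Synpr was the 1 member of 35 that passed, or 2.86%, against 1.55% of all genes (0.958% higher and 0.59% lower), with a change of 0.63 ± 0.12 (SE; adjusted p = 0.00349, limma). It held in all 9 other settings and without each of 22 libraries. Without CAC replicate 3 of 8 wk 3 members passed. Of all calls 61.9% were higher as reported, 47.7% after quantile normalization and 41.3% without mitochondrially encoded genes. For the other members called at 8 wk, a change of the difference since 2 wk did not pass.

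**Figure D3:**
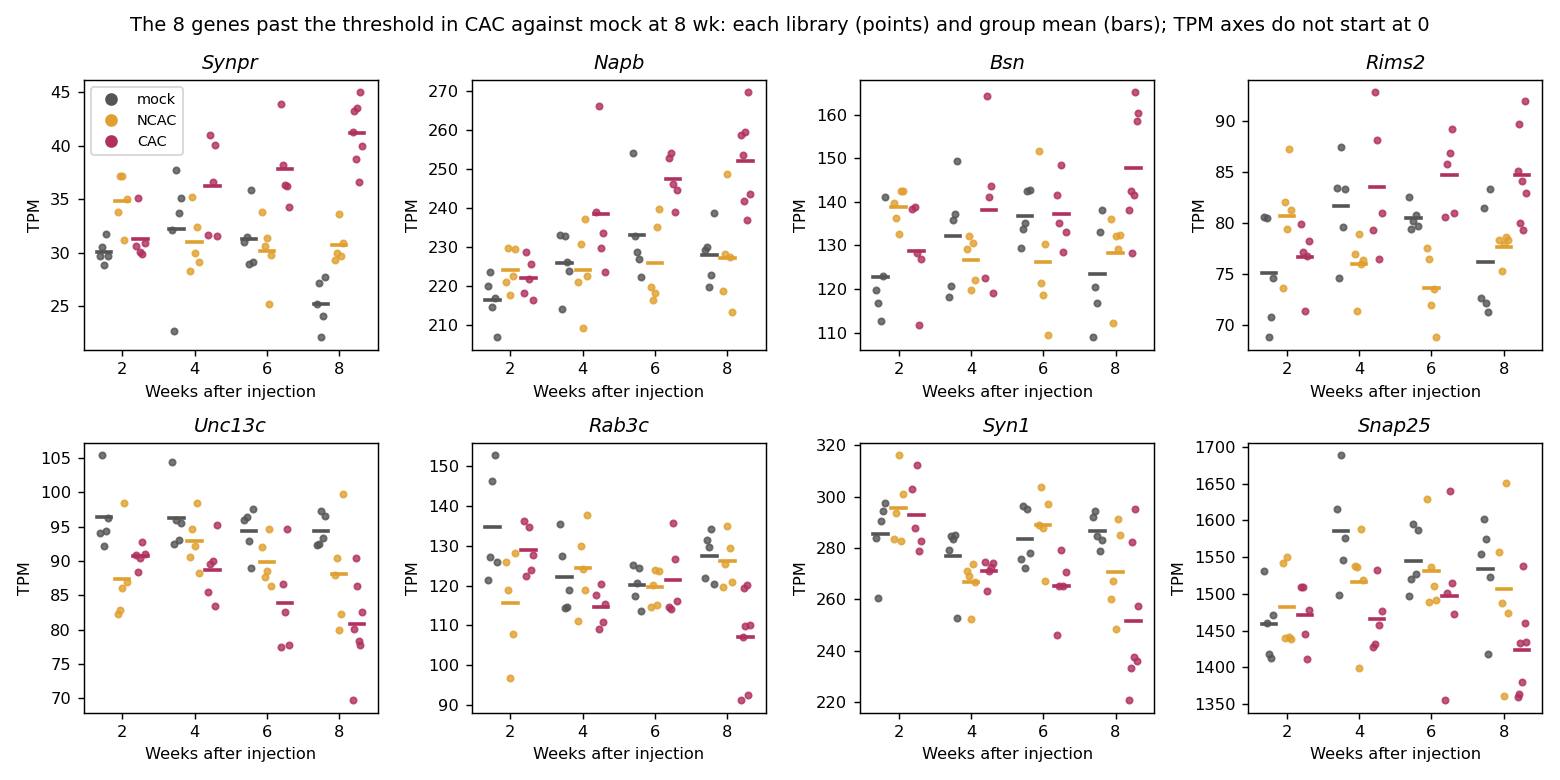
TPM of the 8 members that passed in CAC against mock at 8 wk, by week, with each library as a point and the group mean as a bar. At 8 wk the CAC libraries of Synpr lie at 36.6 TPM or more and those of mock and NCAC at 33.6 or less, whereas CAC and mock overlap for Napb, Bsn, Rims2, Syn1 and Snap25. Axes do not start at 0.

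The 8 wk and 2 wk groups were compared within each treatment. Time after injection cannot be told apart here from the age of the mice or, in the tumour arms, from tumour growth. In CAC at 8 wk against CAC at 2 wk 14 of 35 members passed in limma, or 40%, against 17.9% of all genes, 4 higher and 10 lower, where 8.26% and 9.62% of all genes were higher and lower. Without CAC replicate 3 the count was also 14. Dnm1 had the smallest p. It stood at 871.5, 877.6, 818.4, 823.8 and 868.1 TPM at 2 wk, all above the highest 8 wk library at 795.6 TPM, and fell by 0.15 on the log2 scale (SE 0.03; adjusted p = 0.00012). The 4 that rose were Napb (0.18), Synpr (0.38), Rims2 (0.14) and Bsn (0.20). Besides Dnm1, the vesicle genes Syn1, Syn2, Syngr1, Sv2a and Rab3c fell by 0.22, 0.16, 0.11, 0.09 and 0.27. Unc13c and Unc13a fell by 0.17 and 0.38, Stx1a by 0.42 and Syt11 by 0.10. Dnm1, Napb, Synpr, Rab3c and Syn2 kept their calls in all 9 other settings and without each of the 12 libraries in turn, and Syn1, Sv2a and Unc13c without each library. Several of the others were fragile. Syt11 (adjusted p = 0.049) kept its call in 5 of 9 settings and 2 of 12 leave-outs (those without replicate 5 of 2 wk or 3 of 8 wk), with an adjusted p up to 0.165. Bsn (adjusted p = 0.044) kept it in 6 of 9 settings and 6 of 12 leave-outs, with losses without replicates 3, 4 or 5 of 2 wk or 5, 6 or 7 of 8 wk (adjusted p up to 0.173). Stx1a kept it in 6 of 8 settings and 7 of 12 leave-outs, with losses without replicates 1, 3 or 5 of 2 wk or 1 or 6 of 8 wk (adjusted p up to 0.0788). Unc13a lost it without replicates 1 or 5 of 2 wk or 1 of 8 wk (adjusted p up to 0.0587), and Rims2 without replicate 3 of 2 wk or 2 or 6 of 8 wk (adjusted p up to 0.0875). Syngr1 lost it without replicate 1 of 2 wk (adjusted p = 0.0763). Libraries of the 2 times did not overlap for Dnm1, Napb, Synpr, Rab3c and Sv2a, or 14.3% of the members, against 4.06% of all genes tested. A fit on these groups alone called 5 members. Cell type markers and other presynaptic genes were read over the same interval, to be set against the 17.9% of all genes called. Of the 59 other presynaptic genes tested 4 were higher and 19 lower, or 39%. Slc17a7 and Slc32a1 of that list are also a granule cell and an inhibitory interneuron marker here. Of 10 granule cell markers 6 were lower, with a median of -0.16 and sums of 6378 to 7297 TPM at 2 wk and 5437 to 6810 TPM at 8 wk. Of 8 oligodendrocyte markers 7 were lower, with a median of -0.50 and sums of 2778 to 3366 TPM at 2 wk and 1889 to 2410 TPM at 8 wk. Of 8 choroid plexus markers 1 was higher and all 8 had a fold change above 0, with sums of 167 to 6649 TPM at 2 wk and 3001 to 8148 TPM at 8 wk. Of 8 astrocyte and Bergmann glia markers 3 were higher and 1 lower, of 8 microglia markers 1 and 1, and of the Purkinje cell and inhibitory interneuron markers 1 each was higher. In mock over the same interval the medians were -0.12 for granule cell, -0.185 for oligodendrocyte and 0.68 for choroid plexus markers. In NCAC they were -0.08, -0.165 and 2.20, the last above the 1.02 of CAC. None of these lists held a called marker in mock or NCAC. The part of the markers and of the other presynaptic genes in the changes of the members was not tested. In mock at 8 wk against 2 wk 0 members passed in limma, against 0% of all genes. At an unadjusted p under 0.05 were 1211 of all 14399 genes and 2 of 35 members. One was Synpr, the 1 member that did not overlap between the times (2.86%, against 1.19% of all genes tested), which stood at -0.25 on the log2 scale (adjusted p = 0.416). In NCAC at 8 wk against 2 wk 0 members passed in limma, against 0.0486% of all genes (0.00694% higher and 0.0417% lower). At an unadjusted p under 0.05 were 7 of 35 members and 1957 of all 14399 genes. Dnm1 had log2 fold changes of -0.03 in mock and -0.07 in NCAC over the same interval, and the change over time in its difference of CAC from mock did not pass (-0.13; adjusted p = 0.0971). That test covered every member, and of the 14 called in CAC over time only Synpr passed it. For Synpr the test joins the change of 0.38 in CAC with that of -0.25 in mock. The parts of CAC and mock in it were not tested apart. For the other members called, Dnm1 included, it was not shown that the change over time was particular to CAC.

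NCAC against mock asked the same of the melanoma cells labelled non-cachectic. In limma 0 members passed at 2, 4, 6 or 8 wk, against 0.0139% of all genes at 2 wk and 0% at the later weeks. At an unadjusted p under 0.05 were 6, 2, 4 and 1 of 35 members. Of all 14399 genes 780, 306, 1202 and 1038 were at that level. The 1 at 8 wk was Synpr, at 0.27 on the log2 scale (adjusted p = 0.51) and the 1 member without overlap between the groups (2.86%, against 0.91% of all genes tested). At 2 wk the Synpr mean was also higher in NCAC, at 34.9 ± 2.54 TPM against 30.1 ± 1.10 in mock (log2 fold change 0.20; adjusted p = 0.888), and at 6 wk it was 30.2 ± 3.16 TPM against 31.3 ± 2.79. Rab3c was at -0.22 on the log2 scale at 2 wk (adjusted p = 0.649) and at -0.02 at 8 wk.

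The tumours were compared directly in CAC against NCAC. The comparison shares its CAC libraries with CAC against mock, so the values are given side by side and not as separate support. At 8 wk 4 of 35 members passed in limma, or 11.4%, against 11.8% of all genes, 2 higher and 2 lower, where 7.76% and 4.01% of all genes were. Synpr rose by 0.41 (SE 0.08; adjusted p = 0.000388), against 0.69 relative to mock. Napb rose by 0.15 (adjusted p = 0.00419), with NCAC libraries at 218.7, 228.1, 248.5, 227.3 and 213.2 TPM, of which the third reached into the CAC range. Rab3c fell by 0.24 (adjusted p = 0.00764), with NCAC libraries at 119.6, 125.3, 134.9, 129.4 and 121 TPM, the lowest just below the highest CAC library. Pclo fell by 0.26 (adjusted p = 0.00836), with NCAC libraries at 83, 74.9, 73.6, 85.3 and 79.8 TPM. Synpr and Rims2 did not overlap between these groups (5.71% of the members, against 2.6% of all genes tested). Rims2 stood at 84.7 ± 4.70 TPM in CAC, with 75.3 to 78.6 TPM in NCAC, but was not called (log2 fold change 0.12; adjusted p = 0.0658). Nor were Bsn (0.20; adjusted p = 0.0532), Unc13c (-0.12; adjusted p = 0.0871) and Unc13a (-0.30; adjusted p = 0.0837). Without CAC replicate 3 there were 10 calls, 5 higher and 5 lower. Of all calls 65.9% were higher as reported, 47.9% after median-of-ratios scaling, 45.7% after quantile normalization and 41.2% without mitochondrially encoded genes, with 2 members higher each time and 4, 7 and 10 lower. In a fit on the compared groups alone Synpr was called and Napb, Rab3c and Pclo were not (adjusted p = 0.0613, 0.0642 and 0.0624).

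At 6 wk CAC against NCAC called 4 of 35 members in limma, or 11.4%, against 9.45% of all genes, 3 higher and 1 lower, where 7.47% and 1.99% of all genes were. Syt11 stood at 350.7, 382.7, 345.5, 378.9 and 348.9 TPM in CAC and 404.5, 416.7, 396.2, 388.2 and 424.6 TPM in NCAC, without overlap, and fell by 0.17 (SE 0.04; adjusted p = 0.00591). Rims2 stood at 80.6, 85.8, 86.8, 89.2 and 81 TPM in CAC and 77.5, 76.5, 72, 73.5 and 68.8 TPM in NCAC, also without overlap, and rose by 0.20 (SE 0.05; adjusted p = 0.0098). Synpr stood at 43.9, 38.2, 36.3, 36.2 and 34.3 TPM in CAC and 33.8, 30.6, 31.4, 25.2 and 29.8 TPM in NCAC, and rose by 0.32 (SE 0.09; adjusted p = 0.0167), a call lost without CAC replicate 1 (adjusted p = 0.0898) or NCAC replicate 4 (adjusted p = 0.0504). Syt11, Rims2 and Synpr were the members without overlap (8.57%, against 6.74% of all genes tested). Napb rose by 0.13 (adjusted p = 0.0269), a fragile call kept in 5 of 9 other settings and 5 of 10 leave-outs. It was lost with median-of-ratios scaling, quantile normalization, mitochondrially encoded genes removed and the compared groups alone (adjusted p = 0.186, 0.0949, 0.111 and 0.0645), and without CAC replicates 1 or 2 or NCAC replicates 1, 2 or 3 (adjusted p = 0.0898, 0.051, 0.0557, 0.081 and 0.0726). Without CAC replicate 1 the count was 2. The share of all calls that were higher was 79.0% as reported, 41.6% after median-of-ratios scaling, 41.9% after quantile normalization and 54.6% without mitochondrially encoded genes, with 2 members higher each time and 5, 3 and 3 lower. At 4 wk 0 members passed in limma, against 0.00694% of all genes, and at 2 wk 0 members, against 0% of all genes. At an unadjusted p under 0.05 were 4 of 35 members each time. Of all 14399 genes 1363 at 4 wk and 987 at 2 wk were at that level.

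**Figure D4:**
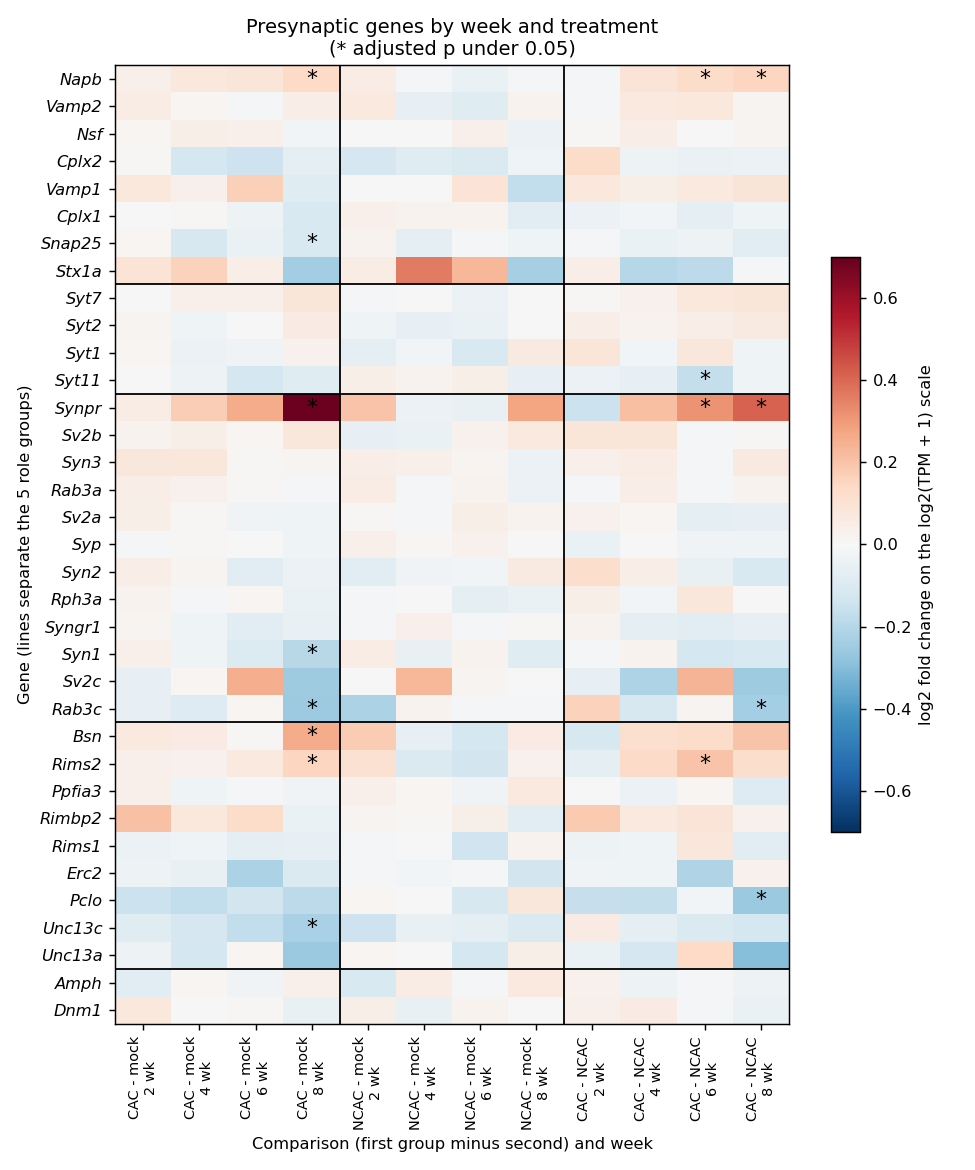
Log2 fold change of each member (rows, by role group) in the 12 comparisons between treatments (columns), on the log2(TPM + 1) scale; stars mark an adjusted p under 0.05. Stars lie in the columns of CAC against mock at 8 wk and of CAC against NCAC at 6 and 8 wk, with 8, 4 and 4 stars, and Synpr at 8 wk has the deepest colour at 0.69.

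Other presynaptic genes outside the 35 were read from a list of 60, of which 59 were tested. The list was chosen with earlier results of these data known, so its share called is a description only. In CAC against mock at 8 wk 9 were higher and 9 lower, or 30.5% against 20.8% of all genes, with a median of -0.01. The smallest p belonged to Rab3b, another vesicle Rab3, at 17.9 ± 2.71 TPM in CAC and 10.4 ± 1.04 in mock (log2 fold change 0.72; adjusted p = 6.26e-06, limma). The Rab3 paralogs thus differed in sign, with Rab3b higher and Rab3c lower. Also higher were Dnajc5 (0.14), which encodes the vesicle chaperone CSP-alpha, Cacna1a (0.25), the P/Q-type calcium channel that triggers release, Cplx3 (0.68), a complexin at 3.51 TPM in CAC, and Prrt2 (0.28), a regulator of SNARE assembly. The vesicular synaptotagmin gene Syt9 was lower, at 46.8 ± 6.07 TPM against 57.3 ± 1.82 (log2 fold change -0.29). Of 30 postsynaptic genes 3 were higher and 1 lower, or 13.3%, with a median of 0.01. These were the scaffold genes Dlgap1 (0.24) and Dlgap3 (0.30) and the AMPA receptor subunits Gria2 (0.24) and Gria4 (-0.16).

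Cell type markers were also compared at 8 wk, in CAC against mock, where limma called 20.8% of all genes. The shares called were 87.5% for oligodendrocyte, 50% for astrocyte and Bergmann glia and 37.5% for microglia markers. For Purkinje cell, inhibitory interneuron and granule cell markers they were 12.5%, 11.1% and 10%, below that of all genes. Of 8 oligodendrocyte markers 7 were lower in CAC than in mock, with summed levels of 1889 to 2410 TPM in CAC and 2363 to 3196 TPM in mock. Of 8 microglia markers 3 were lower, at 174.7 to 226.8 TPM in CAC and 178 to 324.3 TPM in mock. All 8 had a fold change below 0 against mock in CAC (median -0.32) and also in NCAC (median -0.33, 0 called). The median for CAC against NCAC was -0.01. In mock all 8 were above 0 at 8 wk against 2 wk (median 0.26, 0 called). Of 9 inhibitory interneuron markers 1 was higher, at 2486 to 2770 TPM in CAC and 2371 to 2609 TPM in mock. Of 10 granule cell markers 1 was lower, at 5437 to 6810 TPM in CAC and 5821 to 6897 TPM in mock. It was Slc17a7, also counted among the lower of the other presynaptic genes. Slc32a1 and Gabra6 likewise stand in a marker list and a synaptic list. Of 8 Purkinje cell markers 1 was lower, at 5467 to 6439 TPM in CAC and 5697 to 6811 TPM in mock. Of 8 astrocyte and Bergmann glia markers 2 were higher and 2 lower, at 2348 to 2646 TPM in CAC and 2573 to 2710 TPM in mock. Of 8 choroid plexus markers, at 3001 to 8148 TPM in CAC and 3760 to 6448 TPM in mock, 0 passed in limma. The same held for 5 red blood cell markers and the 3 forebrain markers tested of 8. In these lists 0 were at an unadjusted p under 0.05, against 4882 of all 14399 genes. Each brainstem marker was below the filter. The part of these cell types in the changes of the presynaptic genes was not tested. In bulk tissue fewer cells of a type and less RNA per cell cannot be told apart.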

How the data were processed

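Per the labels' protocols, Trizol was used to extract cerebellum RNA and a TruSeq stranded mRNA kit to prepare libraries. The authors deposited 1 table of TPM values per gene symbol, in which each library sums to 1e+06. The build was mm10, per the submitters' processing notes. For the aligner, quantification tool, annotation and strand setting, the name is not given in the sources used here. Depth is lost in TPM, so no counting interval or floor is given, and values within a library are shares of 1 total. Groups and replicate numbers came from the sample descriptions. The treatment field names cachectic cells for every sample, and the extraction protocol speaks of another tumour line, so both were set aside.

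The analysis used log2(TPM + 1) and kept 14399 symbols averaging at least 1 TPM. One limma model (version 3.58.1, R 4.3.3) covered all 12 groups (lmFit, contrasts, eBayes with a trend; 50 residual degrees of freedom), for 16 comparisons. P-values are two-sided and adjusted by Benjamini-Hochberg over all genes within each comparison, with a threshold of 0.05. Fold changes on this scale understate the change of low genes. The fit was tested on simulated data. The 35 members and the other lists were chosen with earlier results of these data known, so no p is adjusted over a list alone. Per-library values are given for up to 12 members past the threshold in any comparison, by smallest p, for the most abundant member and for those with the largest and the smallest fold change at 8 wk in each role group; other members are given by range and count. Others named were chosen as paralogs or partners of these, or are given with their count. In the presynaptic and postsynaptic lists up to 6 called genes are named. The fit was repeated with median-of-ratios scaling, sample weights, a replicate block, a pseudocount of 0.1, a filter at 5 TPM, no filter, only the compared groups, quantile normalization, without mitochondrially encoded genes, and with each replicate left out in turn. Coordinates are from GENCODE M21 (GRCm38) and promoter windows from RefSeq (GRCm38.p6).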

Additional observations from a re-analysis of the deposited data

Results flagged for a closer look

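Synpr was flagged on 2 counts. Its difference between CAC and mock changed between 2 and 8 wk by 0.634 on the log2 scale, by the test of the change itself (adjusted p = 0.00349, limma). In CAC at 2 wk replicate 2 stood at 35.1 TPM, apart from the other 4 libraries at 29.9 to 30.9 TPM, with a gap of 0.817 of the group's range against a critical value of 0.71. That was 1 of 51 groups checked over 16 members, where chance flags about 5%.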

How the results depend on the processing

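No member that passed changed sign in any setting run. The number of members called depended on the setting. These counts, and those given above with a library left out, stand without the share of all genes called in the same setting. A change in a count is thus not read as a result about the members, since all calls may shift with it. CAC against mock at 6 wk, with 0 as reported, gave 2 with median-of-ratios scaling, 1 with quantile normalization, 2 with mitochondrially encoded genes removed, 4 with sample weights, and 0 to 2 leaving out each replicate (2 without CAC replicate 4). CAC against NCAC at 6 wk, with 4, gave 7 with median-of-ratios scaling, 7 with sample weights, 2 in the compared groups alone, and 2 to 5 leaving out each replicate. CAC against mock at 8 wk, with 8, gave 13 with mitochondrially encoded genes removed, 5 with a replicate block, 5 in the compared groups alone, and 6 to 11 leaving out each replicate. CAC against NCAC at 8 wk, with 4, gave 9 with quantile normalization, 12 with mitochondrially encoded genes removed, 11 with sample weights, 1 in the compared groups alone, and 4 to 10 leaving out each replicate. CAC at 8 wk against 2 wk, with 14, gave 9 with a replicate block, 5 in the compared groups alone, and 10 to 14 leaving out each replicate. The test of change from 2 to 8 wk in CAC against mock, with 1, gave 2 with quantile normalization, 3 with mitochondrially encoded genes removed, 2 with sample weights, and 1 to 3 leaving out each replicate. Mock at 8 wk against 2 wk, with 0, gave 1 with sample weights. The other comparisons gave 0 in every setting. The cause of these differences was not tested. The fits on the compared groups alone hold fewer samples and take the spread from those groups only. The labels tie no replicate number to an animal or batch, and in none of the 12 comparisons between treatments did all 5 same-numbered pairs have a correlation of deviations over 0.1, so the numbers were not taken as pairing. For CAC against mock at 8 wk the correlations lay between -0.155 and 0.0755, and 0 of 5 libraries correlated best with their own number. The highest were in CAC against NCAC at 2 wk (up to 0.396, with 4 of 5 over 0.1 and 3 best with their own number) and 4 wk (up to 0.321, with 3 of 5 and 3). The block drops CAC replicates 6 and 7 at 8 wk, and with it Bsn, Rims2 and Snap25 were not called in CAC against mock at 8 wk (adjusted p = 0.0593, 0.0618 and 0.0603), nor Rab3c against NCAC (adjusted p = 0.0539).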
